A study of Mus musculus with 16 samples.

Results

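The 35 genes described here encode the enzymes that build cholesterol and long-chain fatty acids, with the proteins that set their transcription. They were chosen by symbol. Each had to reach a mean of 1 CPM (reads of the gene per 1000000 reads counted) over the 15 distinct libraries, and all 35 did, among 14004 of the 54658 genes listed. This cut used unscaled library sizes, while the CPM values given below follow TMM scaling of the library sizes. The cells were C17.2α, neural stem cells from mouse cerebellum that stably overexpress the thyroid hormone receptor TRα1, so every group carries this transgene. Medium was made with newborn calf serum that had been stripped with charcoal to deplete thyroid hormone, and cells were exposed for 24 h without added T3. DMSO, the solvent, gave 2 libraries. Picoxystrobin, pyraclostrobin and trifloxystrobin were each used at 30, 100, 300 and 1000 nM, with 1 library per concentration, and azoxystrobin at 100 and 1000 nM. All libraries came from a single experiment, so the p-values below measure only the spread between these libraries, which may be technical.

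The library labelled azoxystrobin 100 nM held the same count as the second DMSO library for every one of the 54658 genes, whereas no other pair differed in fewer than 22355 genes. The files do not show which label is right. It was counted once, as DMSO, which left azoxystrobin with 1 library. Calls with pyraclostrobin in the main fits are also given without each DMSO library. Calls under alternative settings, or with a library of a compound left out, are not given in that way. Depth ran from 12292390 to 18188099 counted reads per library, with a median of 16180381. Of 8 neural progenitor markers, 6 were at 1 CPM or more, Vim and Nes among them, while Fabp7 and Prom1 were under 1. Neither any of 4 hepatocyte nor any of 4 adipocyte markers reached that level, whereas 4 of 5 fibroblast or mesenchymal markers did, with Lum the exception.

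Cells make cholesterol from acetyl-CoA through mevalonate, the isoprenoids, squalene and lanosterol, and fatty acids from the same precursor through malonyl-CoA. Transcription of these genes is set by the SREBP factors, which are held in the endoplasmic reticulum with their escort Scap by the Insig proteins while sterols are plentiful, and are carried to the Golgi and cut when sterols run low. The strobilurins are fungicides that block complex III of the respiratory chain. Azoxystrobin and picoxystrobin carry a methoxyacrylate group, pyraclostrobin a methoxycarbamate and trifloxystrobin an oximinoacetate. The comparisons ask whether, and at which concentrations, each compound changed transcripts of this pathway in neural cells.

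The DNA just upstream of 3 of these genes is shown because SREBP acts on promoters of this pathway. Hsd17b7 and Acat2 were higher with pyraclostrobin at 300 and 1000 nM, and Hmgcs1, which was not called there, held the only match to the searched sterol element. That grouping of concentrations was added after the data were seen. In the planned comparisons Hsd17b7 was called and Acat2 was not. Sequences are from RefSeq on GRCm38.p6, 5′ to 3′ on the strand of the gene, and only the bases outside the gene model are printed. Capitals mark the sterol-element letters TCACNCCAC, the CCAAT box and the GC box GGGCGG, each on either strand.
Hsd17b7, chr1:169969242-169969455, minus strand: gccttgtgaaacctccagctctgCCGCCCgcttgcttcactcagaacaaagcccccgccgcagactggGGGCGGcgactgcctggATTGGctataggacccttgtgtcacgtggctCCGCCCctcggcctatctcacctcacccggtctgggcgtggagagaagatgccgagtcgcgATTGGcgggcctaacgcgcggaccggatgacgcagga
Acat2, chr17:12960748-12960975, minus strand: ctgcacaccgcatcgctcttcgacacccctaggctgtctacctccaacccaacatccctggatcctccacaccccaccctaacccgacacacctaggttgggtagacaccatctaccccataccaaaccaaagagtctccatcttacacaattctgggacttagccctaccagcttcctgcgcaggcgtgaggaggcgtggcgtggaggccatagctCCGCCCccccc
Hmgcs1, chr13:119690101-119690350, plus strand: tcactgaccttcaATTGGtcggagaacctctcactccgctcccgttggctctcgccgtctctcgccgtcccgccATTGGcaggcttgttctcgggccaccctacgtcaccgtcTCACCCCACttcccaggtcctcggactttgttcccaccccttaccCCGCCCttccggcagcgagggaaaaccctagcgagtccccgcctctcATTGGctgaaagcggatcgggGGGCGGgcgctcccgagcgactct
The Hsd17b7 stretch overlaps an exon of the antisense gene 3110045C21Rik. Of the other genes called with pyraclostrobin, Msmo1 and Idi1 have 36 and 145 bases outside the gene model, and neither stretch holds any of these letters. The first of the Insig2 starts has 3 CCAAT boxes and no GC box upstream, and Stard4 has no entry. Of the 35 genes, 28 had an entry in the RefSeq promoter table. The shares that follow count a gene if any of its listed starts has the letters within 250 bases upstream, including bases inside the gene model, so they cover more than the stretches printed. By that wider count, Msmo1, Idi1 and Insig2 each had both CCAAT and GGGCGG. TCACNCCAC was found in 1 of the 28 (3.57%) and in 1.22% of all 27025 genes listed. CCAAT was found in 22 of the 28 (78.6%) and in 37.5% of all, and GGGCGG in 23 (82.1%) and 35.4%. Among the 9544 listed genes tested here, these shares were 1.26%, 41.1% and 65.2%. A match is a description of letters and not a site of binding.

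Levels of the 35 transcripts varied little between libraries. In 27 of them, the highest library was under 2-fold above the lowest. The median of this range was 1.62-fold, from 1.16-fold for Cyp51, the lanosterol demethylase, to 2.87-fold for Acss2, which makes acetyl-CoA from acetate. Between the DMSO libraries the median difference was 1.05-fold and the largest 1.32-fold, again for Acss2. Summed over the 35 genes, the level lay between 9958 CPM with trifloxystrobin at 100 nM and 12491 CPM with pyraclostrobin at 300 nM. Per kilobase of exon, the desaturase Scd2 was highest with 594 CPM per kb, and Acaca, the carboxylase that makes malonyl-CoA, was lowest with 0.796 CPM per kb.

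**Figure D1:**
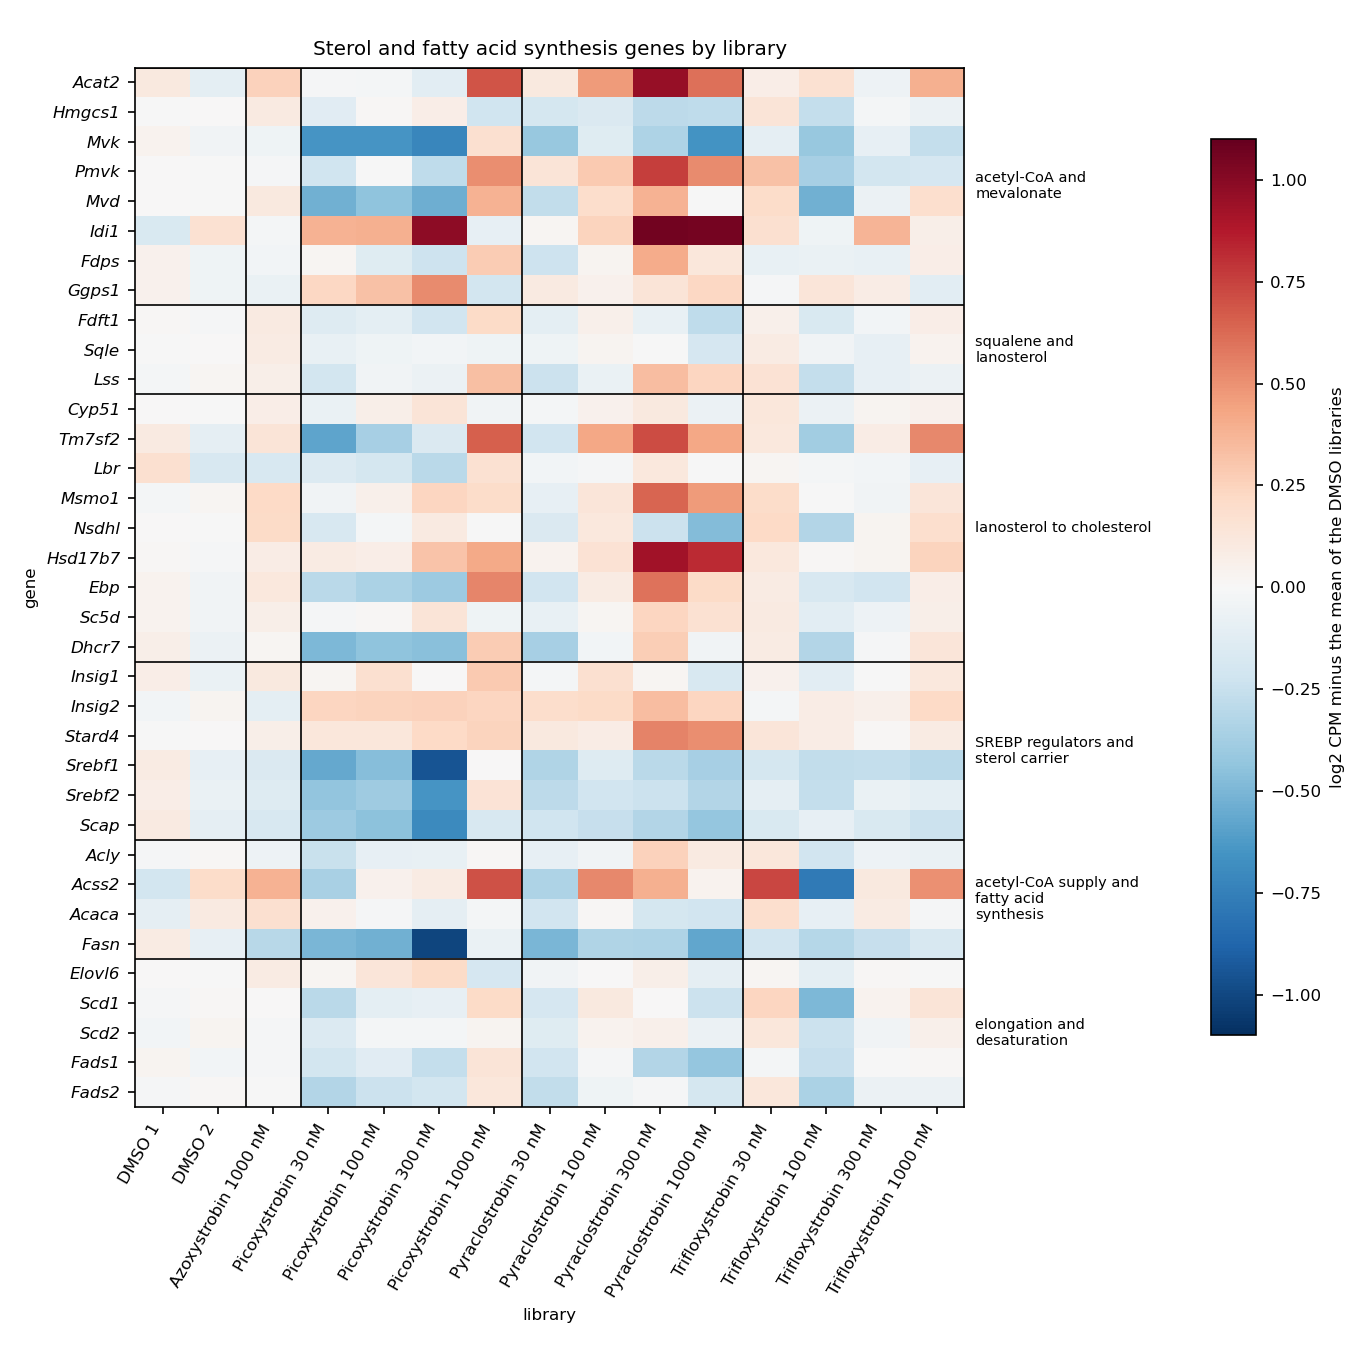
Log2 difference in CPM from the mean of both DMSO libraries for the 35 genes (rows, grouped by step of the pathway) in the 15 libraries (columns, by compound and concentration in nM), with colour giving higher or lower. Hsd17b7, Msmo1, Idi1 and Stard4 are highest in the pyraclostrobin columns at 300 and 1000 nM, and the picoxystrobin column at 1000 nM stands apart from those at 30, 100 and 300 nM.

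With each compound taken as 1 level against DMSO, no member passed the test in any of the 4 comparisons (edgeR quasi-likelihood test, Benjamini-Hochberg adjusted over all 14004 genes, threshold 0.05). Over all genes tested the share called was 0% (azoxystrobin), 0.0286% (picoxystrobin), 1.31% (pyraclostrobin) and 0% (trifloxystrobin). In the same order, 0, 4, 7 and 0 members had an unadjusted p under 0.05, beside 292, 2351, 3258 and 240 genes, and DESeq2 also called 0 members in each. Azoxystrobin has 1 library here, and its spread is taken from the other groups. The median log2 difference of the members was 0.061, -0.033, 0.0079 and -0.018, beside -0.0081, 0.0089, 0.012 and 0.00073 over all genes.

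Within a compound, the slope on concentration asks whether a transcript changed from 30 to 1000 nM. With pyraclostrobin, 1 member rose along the concentrations, Hsd17b7, the 17β-hydroxysteroid dehydrogenase that also serves as a 3-keto reductase of cholesterol synthesis, while 3.16% of all genes were called, 1.66% higher and 1.51% lower. That 1 of 35 is 2.86%, near the background. No member was called for picoxystrobin or trifloxystrobin, where 0% of genes were called in either. At an unadjusted p under 0.05 there were 9 and 0 members and 1586 and 213 genes. DESeq2 also called 0 members in either, with 0% of genes for picoxystrobin.

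Hsd17b7 (chromosome 1, bases 169949535 to 169969241, minus strand, GRCm38) counted 322 and 315 CPM in the DMSO libraries and 338 with azoxystrobin at 1000 nM. At 30, 100, 300 and 1000 nM it counted 327, 356, 605 and 564 CPM with pyraclostrobin. The same concentrations gave 339, 335, 397 and 425 with picoxystrobin and 345, 321, 326 and 379 with trifloxystrobin. The pyraclostrobin libraries at 300 and 1000 nM thus lay above all the other 13, and the picoxystrobin libraries lay above both DMSO libraries at every concentration. The slope with pyraclostrobin was 0.62 on the log2 scale per 10-fold concentration (SE 0.13, adjusted p = 0.0311). It was 0.24 with picoxystrobin (SE 0.13, adjusted p = 0.455) and 0.084 with trifloxystrobin (SE 0.12, adjusted p = 1). The pyraclostrobin slope did not pass without the first DMSO library (adjusted p = 0.0521), without the second (0.0521), without picoxystrobin at 100 nM (0.0533), without trifloxystrobin at 300 or 1000 nM (0.0566 and 0.0551), or without pyraclostrobin at 30, 100 or 1000 nM (0.200, 0.0634 and 0.485). Over these the slope was 0.57 to 0.88.

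**Figure D2:**
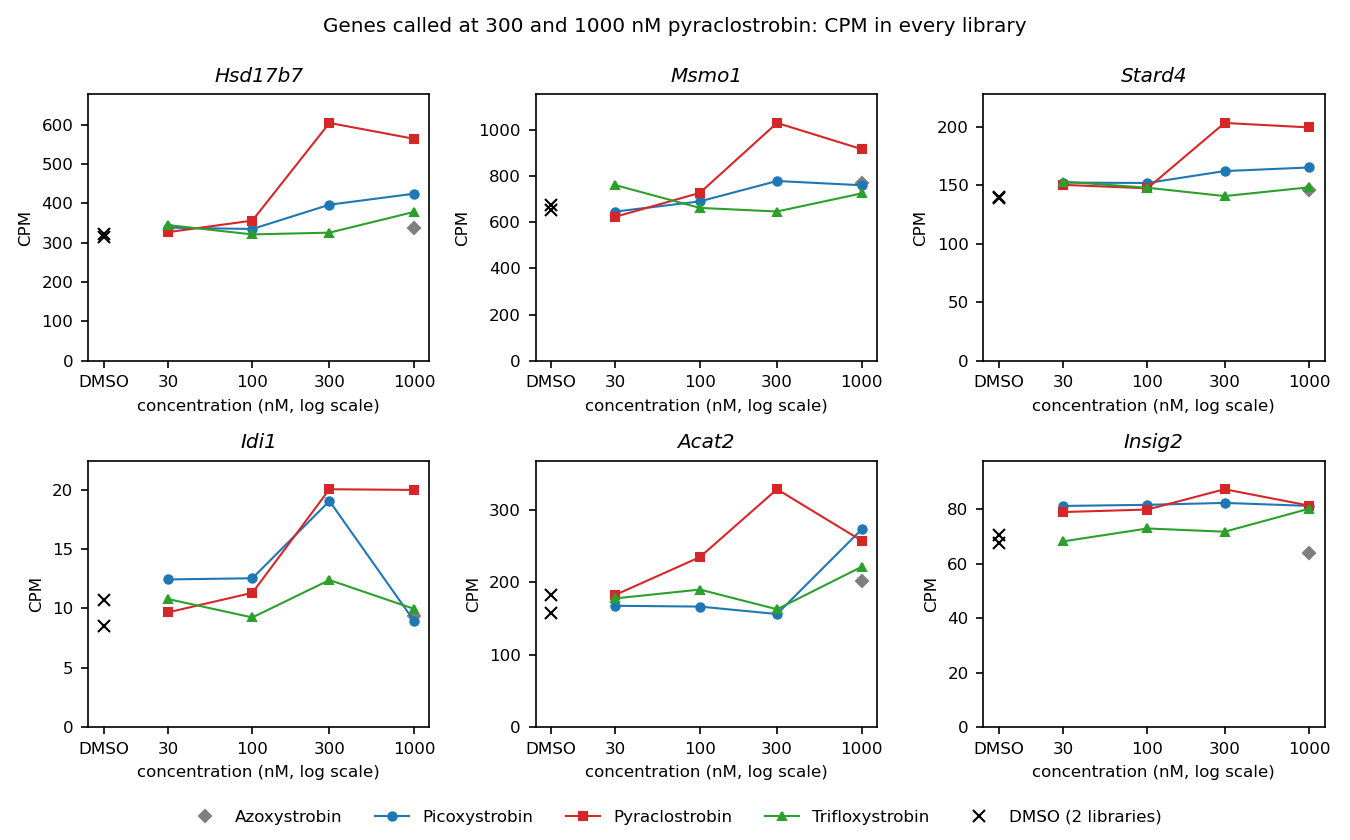
CPM (y axis) against concentration in nM (log x axis) for the genes called at pyraclostrobin 300 and 1000 nM, with a point per library, a line per compound and the DMSO libraries at the left. The pyraclostrobin points at 300 and 1000 nM lie above both DMSO points in every panel, and in Insig2 and Acat2 the points of other compounds overlap them.

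Since the values of pyraclostrobin stepped up between 100 and 300 nM, a grouping of 30 with 100 nM and of 300 with 1000 nM was added after the data were seen. At 300 and 1000 nM against DMSO, 6 of the 35 members rose and 0 fell, which is 17.1% called higher beside 10.6% of all genes and 0% called lower beside 11.5%. In both directions together it is 17.1% beside 22.2% of all genes. Neither difference in shares was tested. The 6 were Hsd17b7, Stard4, Msmo1, Idi1, Acat2 and Insig2. At an unadjusted p under 0.05, 10 members and 5008 genes were found. The median log2 difference was 0.047 over the members and 0.0076 over all genes. In value, 19 members lay above 0 and 16 below, beside 50.9% of all genes above 0. At 30 and 100 nM, 0 members and 0% of genes were called, with 1 member and 1286 genes at an unadjusted p under 0.05 and 0 members by DESeq2. With bulk RNA, fewer cells of a type and less RNA per cell cannot be told apart in any of these differences.

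The count at 300 and 1000 nM depended on single libraries. It was 2 without the first DMSO library (6.91% of all genes), 3 without the second (8.35%), 3 without pyraclostrobin at 300 nM (12.1%) and 3 without pyraclostrobin at 1000 nM (4.43%). Without picoxystrobin at 1000 nM it was 16 (9 higher, 7 lower, beside 40.3% of genes), and without picoxystrobin at 300 nM it was 17 (10 higher, 7 lower, 40.3%). The 7 lower were the same genes in both: Fads1, Fasn, Hmgcs1, Mvk, Scap, Srebf1 and Srebf2. With a correction for GC content and length the count was 10, with 7 higher and with Fads1, Hmgcs1 and Nsdhl lower, beside 26.1% of genes. Hsd17b7 and Stard4 passed with each library left out in turn. Summed over the 5 fibroblast or mesenchymal markers, the level was 5222 to 5907 CPM in DMSO and 2302 to 2593 CPM with pyraclostrobin at 300 and 1000 nM, against 4562 with azoxystrobin, 3441 to 4503 with picoxystrobin and 4098 to 5179 CPM with trifloxystrobin. The neural progenitor markers summed to 3169 to 3253 CPM in DMSO and 2778 to 2885 with pyraclostrobin at 300 and 1000 nM. They summed to 3214 with azoxystrobin, 2911 to 3405 with picoxystrobin and 2799 to 3516 CPM with trifloxystrobin. Those of the oligodendrocyte lineage summed to 1201 to 1212 CPM in DMSO and 1354 to 1431 with pyraclostrobin at 300 and 1000 nM. The other compounds gave 1127 (azoxystrobin), 1260 to 1493 (picoxystrobin) and 1280 to 1470 CPM (trifloxystrobin). The part of these markers in the differences was not tested.

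Of the 8 genes from acetyl-CoA to the isoprenoids, 2 rose at pyraclostrobin 300 and 1000 nM, 0 fell, and the median log2 difference was 0.24. Over all genes, 10.6% were called higher and 11.5% lower there, and no step of the pathway was tested as a set. Idi1 (chromosome 13, bases 8885501 to 8892451), the isomerase of isopentenyl diphosphate, counted 8.50 and 10.7 CPM in DMSO, 9.39 with azoxystrobin and 9.66, 11.3, 20.04 and 19.98 with pyraclostrobin. Picoxystrobin gave 12.4, 12.5, 19.04 and 8.95 and trifloxystrobin 10.8, 9.23, 12.4 and 9.96 CPM. Both high pyraclostrobin libraries lay above the other 13, with picoxystrobin at 300 nM close below them, and their log2 difference from DMSO was 1.06 (SE 0.27, adjusted p = 0.016). It did not pass without the first DMSO library (adjusted p = 0.131), the second (0.0539), or pyraclostrobin at 300 or 1000 nM (0.0629 and 0.0959). Of its 50-base stretches, 21.3% are shared with the processed pseudogene Gm13502, which itself counted 27.1 and 31.0 CPM in DMSO and 66.5 and 76.4 with pyraclostrobin at 300 and 1000 nM, so reads of the gene and its copy may be split.

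Acat2 (chromosome 17, bases 12942890 to 12960747), the cytosolic thiolase that joins acetyl-CoA units at the head of the route, counted 182 and 157 CPM in DMSO and 183, 235, 328 and 258 with pyraclostrobin. With azoxystrobin it counted 202, with picoxystrobin 168, 166, 156 and 273 and with trifloxystrobin 178, 189.9, 163 and 221 CPM. Pyraclostrobin at 300 nM was highest, but picoxystrobin at 1000 nM lay above pyraclostrobin at 1000 nM. The log2 difference at pyraclostrobin 300 and 1000 nM was 0.79 (SE 0.23, adjusted p = 0.03), and it did not pass without either DMSO library (adjusted p = 0.0955 and 0.169) or without pyraclostrobin at 300 or 1000 nM (0.178 and 0.0731). Of its 50-base stretches 45.9% are shared with Acat3, which counted between 0.546 and 1.06 CPM in the DMSO libraries. Hmgcs1, which makes HMG-CoA, counted 310.2 and 312 CPM in DMSO and 272, 279, 255 and 257 with pyraclostrobin, and both high libraries were below the other 13. Its log2 difference there was -0.28 (SE 0.13, adjusted p = 0.147), and it passed with the correction (adjusted p = 0.0149).

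None of the 3 genes from squalene to lanosterol passed at pyraclostrobin 300 and 1000 nM in the main fit. Sqle, the squalene epoxidase, counted 563 and 564 CPM in DMSO, 600.3 with azoxystrobin, 534, 547, 552 and 544 with picoxystrobin, 547, 576, 561 and 496 with pyraclostrobin and 599.6, 549, 529 and 579 with trifloxystrobin. The libraries lay close together, with pyraclostrobin at 1000 nM lowest, and the log2 difference with pyraclostrobin at 300 and 1000 nM was -0.092 (SE 0.095, adjusted p = 0.521). Lss, which closes the rings to lanosterol, counted 229 and 235 CPM in DMSO, 243 with azoxystrobin, 202, 225, 222 and 291 with picoxystrobin, 196, 219.8, 293 and 273 with pyraclostrobin and 258, 193, 218 and 222 with trifloxystrobin. Its libraries overlapped between groups, and the pyraclostrobin slope was 0.37 (SE 0.12, adjusted p = 0.114). With the correction for GC content and length its slope passed (adjusted p = 0.0468), as did its difference at 300 and 1000 nM (log2 difference 0.39, adjusted p = 0.0491). Without that correction, Lss was also called higher at 300 and 1000 nM when picoxystrobin at 300 nM was left out. Its slope passed without picoxystrobin at 300 or 1000 nM (beside 10.4 and 13.6% of genes) and without the filter on low counts (4.04%).

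Of the 9 genes from lanosterol to cholesterol, 2 rose at pyraclostrobin 300 and 1000 nM and 0 fell, with a median of 0.20. Beside them, 10.6% of all genes were called higher and 11.5% lower. For Hsd17b7 the log2 difference was 0.88 (SE 0.10, adjusted p = 0.000563). Msmo1 (chromosome 8, bases 64718139 to 64733792), the oxidase that begins removal of the methyl groups at carbon C-4, counted 651 and 673 CPM in DMSO, 770.1 with azoxystrobin and 623, 727, 1029.8 and 917 with pyraclostrobin. With picoxystrobin it counted 646, 690.1, 778 and 760.0 and with trifloxystrobin 760.5, 662, 646 and 725 CPM. The high pyraclostrobin libraries lay above the other 13, and the log2 difference was 0.56 (SE 0.11, adjusted p = 0.00588), which did not pass without the first DMSO library (adjusted p = 0.0581). Nsdhl, which acts with Msmo1 and Hsd17b7 on the same groups, went the other way in value: 438 and 434 CPM in DMSO, 506 with azoxystrobin, 386, 431, 466 and 436 with picoxystrobin, 389.7, 472, 369.7 and 313 with pyraclostrobin and 506, 349, 446 and 495 with trifloxystrobin. Its log2 difference at the high pyraclostrobin concentrations was -0.35 (SE 0.16, adjusted p = 0.135). The 3 enzymes of this step thus did not share a direction in value.

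Tm7sf2, a sterol reductase of the same stretch, counted 18.03 and 15.6 CPM in DMSO, 18.5 with azoxystrobin, 11.2, 12.98, 15 and 26.6 with picoxystrobin, 14.5, 22.5, 27.7 and 22.7 with pyraclostrobin and 18.2, 12.8, 17.8 and 24.2 with trifloxystrobin. Its slope with picoxystrobin was 0.81 (SE 0.21, adjusted p = 0.42), and the libraries at 30, 100 and 300 nM lay below both DMSO libraries with that at 1000 nM above them. Dhcr7, the last reductase on the way to cholesterol, counted 249 and 229 CPM in DMSO, 243 with azoxystrobin, 169, 176, 174 and 291 with picoxystrobin, 186, 234, 288 and 232 with pyraclostrobin and 254, 191, 236 and 263 with trifloxystrobin. Picoxystrobin thus gave both its 3 lowest values and its highest.

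**Figure D3:**
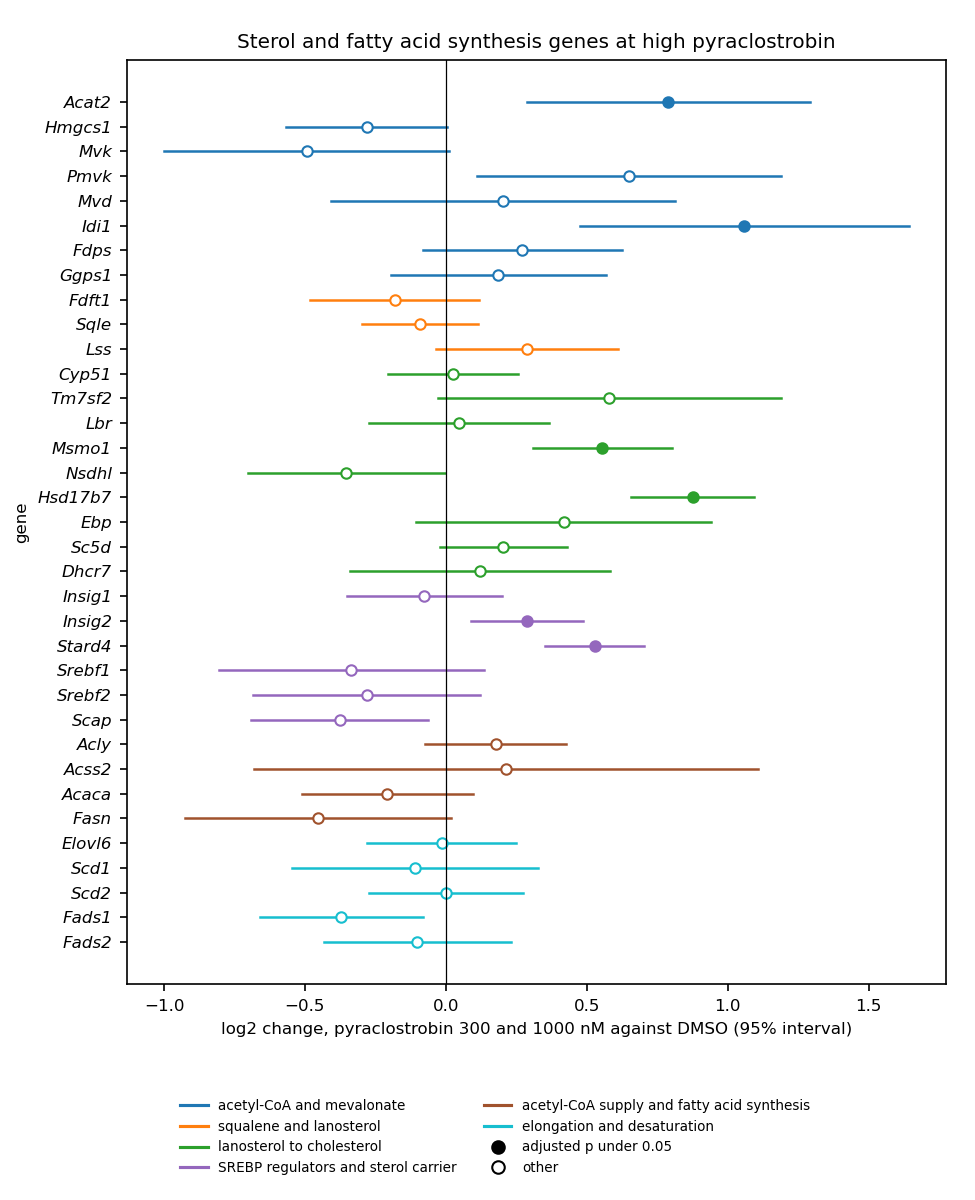
Log2 difference between pyraclostrobin at 300 and 1000 nM and DMSO (x axis) for the 35 genes (y axis, by step of the pathway), with points for the edgeR estimate and bars for its 95% interval. The 6 called genes lie to the right of 0, from Insig2 at 0.29 to Idi1 at 1.06, and no called gene lies to the left.

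Among the 5 regulators and the sterol carrier, 2 rose at pyraclostrobin 300 and 1000 nM, 0 fell, and the median was -0.18. Beside them, 10.6% of all genes were called higher and 11.5% lower. Stard4 (chromosome 18, bases 33199355 to 33213862), which carries sterol between membranes, counted 139 and 140.1 CPM in DMSO and 150.5, 148, 203 and 199.6 with pyraclostrobin. It counted 146 with azoxystrobin, 152, 152, 162 and 165 with picoxystrobin and 153, 148, 141 and 148 with trifloxystrobin. Every exposed library lay above both DMSO libraries, and those of pyraclostrobin at 300 and 1000 nM above all others, with a log2 difference of 0.53 (SE 0.081, adjusted p = 0.00167). Insig2 (chromosome 1, bases 121304353 to 121332589), one of the retention proteins, counted 67.8 and 70.4 CPM in DMSO, 64.1 with azoxystrobin and 78.96, 79.9, 87.3 and 81.3 with pyraclostrobin. Picoxystrobin gave 81.2, 81.6, 82.3 and 81.2 and trifloxystrobin 68.2, 72.9, 71.7 and 80.2 CPM. Its log2 difference with pyraclostrobin at 300 and 1000 nM was 0.29 (SE 0.092, adjusted p = 0.0417), the weakest of the 6 calls. It did not pass without either DMSO library (adjusted p = 0.210 and 0.128) or with a correction for GC content and length (adjusted p = 0.211). Insig2 overlaps Gm37174 and Idi1 overlaps Gm48574 on the other strand, and the strand setting of the counting is not given in the sources used here.

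Scap and Srebf2, the escort and the SREBP of sterol genes, were lower in value with pyraclostrobin at 300 and 1000 nM. Scap counted 71.1 and 61.8 CPM in DMSO, 58.7 with azoxystrobin, 50.2, 48.5, 40.7 and 58.6 with picoxystrobin, 57.03, 55.6, 53.1 and 49.3 with pyraclostrobin and 58.9, 62.4, 59.2 and 56.1 with trifloxystrobin. All 8 picoxystrobin and pyraclostrobin libraries lay below both DMSO libraries. Its log2 difference with pyraclostrobin at 300 and 1000 nM was -0.38 (SE 0.14, adjusted p = 0.0808), and with picoxystrobin as 1 level -0.42 (SE 0.12, adjusted p = 0.172). Srebf2 counted 475 and 428 CPM in DMSO, 408 with azoxystrobin, 334, 343, 288 and 499 with picoxystrobin, 368, 389, 382 and 361 with pyraclostrobin and 422, 375, 429 and 418 with trifloxystrobin. Its slope with picoxystrobin was 0.32 (SE 0.14, adjusted p = 0.428), and -0.21 without the 1000 nM library.

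No fatty acid gene passed in the main fits. Fads1 and Fasn were called lower at pyraclostrobin 300 and 1000 nM when picoxystrobin at 300 or at 1000 nM was left out. Under alternatives on all 15 libraries, Fads1, a desaturase, was called lower at pyraclostrobin 300 and 1000 nM by DESeq2, with the GC and length correction and without the filter on low counts, and Fasn without that filter. Of 4 genes for acetyl-CoA supply and fatty acid synthesis, 2 were above and 2 below 0 at pyraclostrobin 300 and 1000 nM, with a median log2 difference of -0.016. All 5 elongation and desaturation genes were below 0 in value, with a median of -0.10. Fasn, the fatty acid synthase, counted 562 and 498 CPM in DMSO, 429 with azoxystrobin, 374, 366, 262 and 502 with picoxystrobin, 373, 421, 419 and 355 with pyraclostrobin and 457, 425, 443 and 469 with trifloxystrobin. Every exposed library of the 3 compounds with 4 concentrations, save picoxystrobin at 1000 nM, lay below both DMSO libraries. As 1 level, the log2 difference was -0.43 (SE 0.17, adjusted p = 0.145) with pyraclostrobin and -0.50 (SE 0.17, adjusted p = 0.202) with picoxystrobin. Acly, which frees acetyl-CoA from citrate, counted 374 and 381 CPM in DMSO, 363 with azoxystrobin, 319, 355, 357 and 381 with picoxystrobin, 355, 368, 449 and 404 with pyraclostrobin and 411, 326, 364 and 358 with trifloxystrobin. Pyraclostrobin at 300 nM was the highest of these libraries, and the groups otherwise overlapped. Scd2, the most abundant desaturase, counted 3226 and 3373 CPM in DMSO, 3266 with azoxystrobin, 2973, 3244, 3250.4 and 3369 with picoxystrobin, 3003, 3387, 3437 and 3159 with pyraclostrobin and 3601, 2796, 3215 and 3423 with trifloxystrobin. Its log2 difference with pyraclostrobin at 300 and 1000 nM was -0.00041, with an interval from -0.27 to 0.27. Acaca shares 52.6% of its 50-base stretches with the processed pseudogene Gm5182, which counted 43.2 and 44.6 CPM in DMSO, more than Acaca itself (12.9 and 14.7), so its values are uncertain.

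With picoxystrobin, the library at 1000 nM differed in value from those at 30, 100 and 300 nM. At 30, 100 and 300 nM, 17 members lay below both DMSO libraries in all 3 libraries and 6 above them. At 1000 nM, a single library, 21 lay above both and 7 below. The same counts were not made over all genes, so they do not set the members apart from other genes. In the low and high groupings 0 members and 0% of genes were called at 30 and 100 nM and 0 and 0% at 300 and 1000 nM, with 7 and 4 members at an unadjusted p under 0.05 beside 2188 genes in each, and 0 by DESeq2. Left out of the comparison as 1 level, the 1000 nM library brought 8 calls among the members: Ggps1 and Insig2 higher, and Dhcr7, Fasn, Mvk, Scap, Srebf1 and Srebf2 lower, beside 19.2% of all genes. Left out of the slope, the 300 nM library brought 8, all higher, beside 10.7% of genes: Acat2, Dhcr7, Ebp, Mvd, Mvk, Srebf1, Srebf2 and Tm7sf2.

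These picoxystrobin differences moved with GC content. Across the 35 genes, the log2 difference from DMSO averaged over 30, 100 and 300 nM had a correlation of -0.86 with the GC percentage of the longest transcript, and across 13929 genes one of -0.66. At 1000 nM it was 0.18 and 0.17, and for pyraclostrobin at 300 and 1000 nM -0.40 and -0.26. Every azoxystrobin, pyraclostrobin and trifloxystrobin library also had a correlation below 0. It was -0.65 and -0.25 with trifloxystrobin at 300 nM and -0.59 and -0.27 with pyraclostrobin at 30 nM. The DMSO libraries, set against their own mean, gave 0.30 and -0.30 across the 35 genes. The points are genes of the same libraries and so are not independent. Scap, Mvd, Srebf1, Srebf2 and Fasn had 59.1, 59.03, 58.4, 57.9 and 57.9% GC, the highest of the members, whose median was 49.1%. With a correction for GC and length and without the 1000 nM library, 0 members passed for picoxystrobin as 1 level, beside 1.77% of genes. In the same fit by low and high levels, 300 nM alone called 4 members, Idi1 higher and Fasn, Lbr and Srebf1 lower, beside 8.2% of genes, with the spread of that lone library taken from the other groups. The markers of fibroblast or mesenchymal cells lay below DMSO in every picoxystrobin library, as given above, and their part was not tested.

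**Figure D4:**
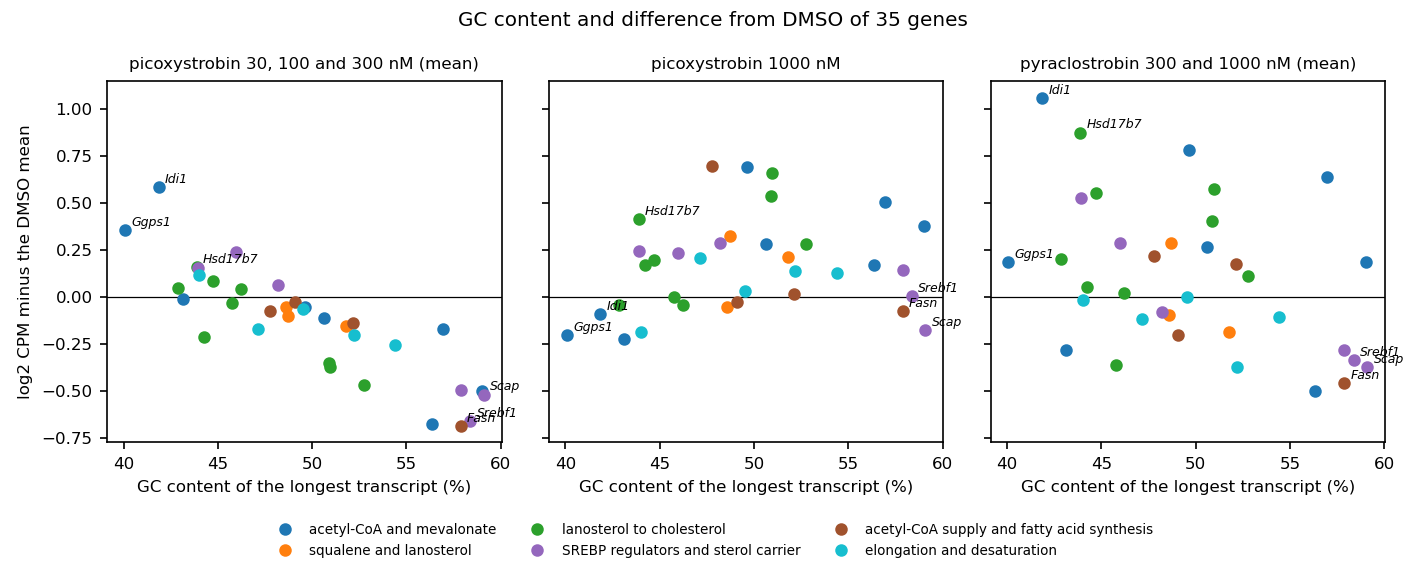
Log2 difference from DMSO (y axis) against GC percentage of the longest transcript (x axis) for the 35 genes, with panels for picoxystrobin at 30, 100 and 300 nM, picoxystrobin at 1000 nM and pyraclostrobin at 300 and 1000 nM. The first panel slopes down with r of -0.86, and the second does not, with r of 0.18.

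**Figure D5:**
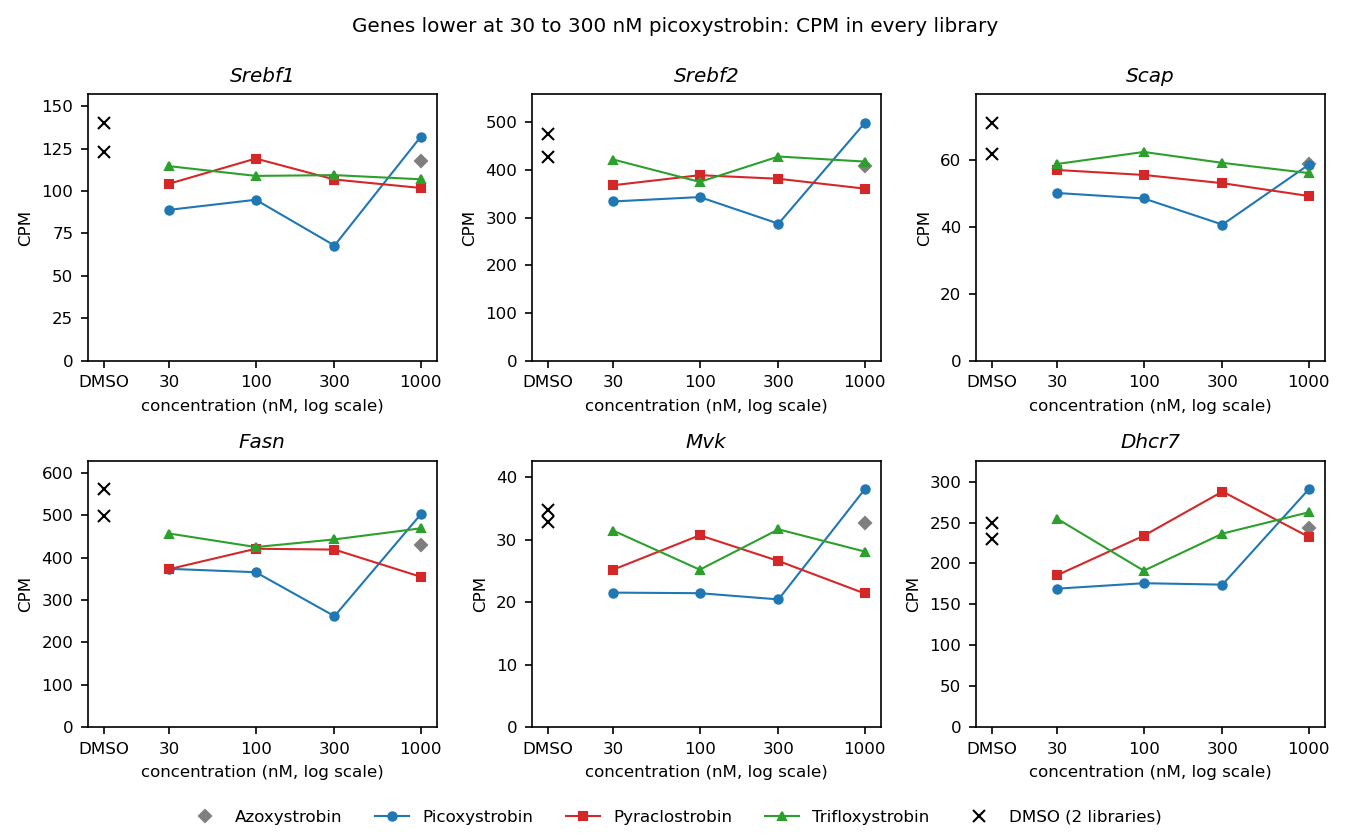
CPM (y axis) against concentration in nM (log x axis) for the genes lower with picoxystrobin once its 1000 nM library was left out, with a point per library, a line per compound and the DMSO libraries at the left. In Dhcr7, Srebf1 and Srebf2 the picoxystrobin points at 30, 100 and 300 nM lie below all others, while that at 1000 nM lies higher.

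Trifloxystrobin called 0 members and 0% of genes at 30 and 100 nM and 0 and 0% at 300 and 1000 nM, with 0 members at an unadjusted p under 0.05 in both, beside 230 and 458 genes, and 0 by DESeq2. Its members' log2 differences as 1 level ran from -0.26 to 0.22. With trifloxystrobin at 100 nM, 5 of the 35 lay above the DMSO mean, and with 30 nM 26 did. The median log2 difference of the members was -0.18 and 0.097 there, beside 0.0031 and -0.0015 over all genes. Each is a single library, and the share of all genes above the DMSO mean was not counted. Azoxystrobin at 1000 nM had 20 members above and 15 below 0, from -0.30 to 0.37, beside 48.2% of all genes above 0.

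Because the compounds differ by the head group named above, 3 pairs were compared at the same 4 concentrations in a fit with concentration as a block, with p-values adjusted over all genes and the 3 pairs. No member passed. The share of genes called was 0.00714% for pyraclostrobin against picoxystrobin, 0% for pyraclostrobin against trifloxystrobin and 0% for picoxystrobin against trifloxystrobin. At an unadjusted p under 0.05, 2, 5 and 1 members were found, beside 1627, 2396 and 1167 genes, and 0 passed by DESeq2. The methoxycarbamate pyraclostrobin and the oximinoacetate trifloxystrobin differed in Hsd17b7 by a log2 value of 0.39 (95% interval 0.11 to 0.68, adjusted p = 0.332). Pyraclostrobin minus the methoxyacrylate picoxystrobin was 0.28 (95% interval -0.0036 to 0.56, adjusted p = 0.411) in the same gene. Picoxystrobin minus trifloxystrobin was 0.11 (95% interval -0.17 to 0.39, adjusted p = 0.729).

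In Acat2, pyraclostrobin minus picoxystrobin was 0.41 (95% interval 0.065 to 0.76, adjusted p = 0.354) and pyraclostrobin minus trifloxystrobin 0.41 (95% interval 0.065 to 0.76, adjusted p = 0.354). Tm7sf2 gave 0.46 (95% interval 0.032 to 0.88, adjusted p = 0.382) for pyraclostrobin minus picoxystrobin. For Scap, picoxystrobin minus trifloxystrobin was -0.26 (95% interval -0.49 to -0.030, adjusted p = 0.366). In Sqle the difference between pyraclostrobin and picoxystrobin was 0.0016 (95% interval -0.17 to 0.18, adjusted p = 0.995), and in Scd2 it was 0.017 (95% interval -0.20 to 0.24, adjusted p = 0.954). Intervals that hold 0 leave room for differences up to their ends and do not show that the compounds act alike.

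The slopes on concentration were also set against each other, and 0 members and 0% of genes passed for pyraclostrobin minus picoxystrobin, 0% for pyraclostrobin minus trifloxystrobin and 0% for picoxystrobin minus trifloxystrobin. At an unadjusted p under 0.05, 3, 4 and 3 members and 1717, 1425 and 307 genes were found; DESeq2 was not run on these differences. For Hsd17b7 the slope with pyraclostrobin exceeded that with trifloxystrobin by 0.54 (SE 0.18, adjusted p = 0.354) and that with picoxystrobin by 0.38 (SE 0.18, adjusted p = 0.406). A difference between compounds in the concentration response of Hsd17b7 was therefore not shown. At 1000 nM, where all 4 compounds have a library, Hsd17b7 counted 338 CPM with azoxystrobin, 425 with picoxystrobin, 564 with pyraclostrobin and 379 with trifloxystrobin, values from single libraries that were not tested.

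Genes around the pathway were counted at pyraclostrobin 300 and 1000 nM, where 22.2% of all genes were called, 10.6% higher and 11.5% lower. None of the lists that follow was tested as a set against these shares. Of 8 genes that process or turn over SREBP, 0 rose and 3 fell: Mbtps1, the site-1 protease, with a log2 difference of -0.51 (SE 0.096, adjusted p = 0.00429), Syvn1, a ubiquitin ligase of the endoplasmic reticulum, with -0.82 (SE 0.21, adjusted p = 0.0177), and Sec24d, a coat protein of vesicles to the Golgi, with -0.61 (SE 0.18, adjusted p = 0.0287). Of 10 tested among 11 other genes ascribed to SREBP, 3 rose and 0 fell. Me1, the malic enzyme that supplies NADPH, rose by 0.51 (SE 0.11, adjusted p = 0.00779), the retinal reductase Rdh11 by 0.58 (SE 0.14, adjusted p = 0.0114) and Mmab, of cobalamin metabolism, by 0.33 (SE 0.11, adjusted p = 0.0452). Mylip, the ubiquitin ligase that degrades lipoprotein receptors, was the 1 call among 5 tested of 7 LXR genes, at -0.85 (SE 0.13, adjusted p = 0.00192), and it also fell along the concentrations, with a slope of -0.63 (SE 0.12, adjusted p = 0.0297) per 10-fold.

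Sterol storage and transport gave 1 rise and 2 falls of 9: Osbpl1a at 0.59 (SE 0.16, adjusted p = 0.0223), Gramd1a at -0.81 (SE 0.20, adjusted p = 0.0141) and Stard3 at -0.65 (SE 0.18, adjusted p = 0.0232), all of which bind or move sterols. The non-sterol branches of the mevalonate route gave 2 rises and 2 falls of 13. Within coenzyme Q synthesis, which makes the electron carrier that complex III oxidises, Coq2 rose by 0.52 (SE 0.12, adjusted p = 0.00851) and Pdss2 fell, at -0.51 (SE 0.16, adjusted p = 0.0372), the latter also along the concentrations, with a slope of -0.59 (SE 0.14, adjusted p = 0.0427) per 10-fold. The farnesyltransferase subunits moved apart, Fnta at 0.57 (SE 0.13, adjusted p = 0.0117) and Fntb at -0.65 (SE 0.14, adjusted p = 0.00868). Of 15 fatty acid oxidation genes 1 rose, Etfdh, which passes electrons to coenzyme Q, by 0.46 (SE 0.093, adjusted p = 0.00575). The other members of these lists did not pass. Without the first DMSO library, 3 of these 15 calls remained (Etfdh, Mbtps1 and Mylip), and without the second 6 (Coq2, Fnta, Gramd1a, Mbtps1, Mylip and Syvn1), while all 15 kept their sign. The slope of Mylip passed without either DMSO library (adjusted p = 0.0497 and 0.0495), and that of Pdss2 did not (0.0609 and 0.0608).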

How the data were processed

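RNA of C17.2α cells was made into libraries with a kit for total RNA and sequenced as single-end reads. Per the labels, the submitters' processing notes name Bowtie2 (2.3.2.2) and the build mm10, and the authors counted reads per gene with htseq-count. The annotation and the strand setting are not given in the sources used here. The deposited values are raw read counts per gene, 1 table per library.

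Genes with a mean of 1 CPM or more over the 15 distinct libraries were tested with edgeR 4.0.16 (R 4.3.3), with TMM factors, the quasi-likelihood test and Benjamini-Hochberg adjustment over all 14004 genes, at a threshold of 0.05. No concentration was replicated, so the concentrations of a compound stood as its replicates, and azoxystrobin, with 1 library, took its spread from the other groups. The fits were 1 level per compound against DMSO, a slope on log10 concentration, and compound pairs with concentration as a block over the libraries of 3 compounds. A fit with low and high levels of each compound was added after the data were seen. Alternatives were DESeq2 1.42.0, RLE size factors, a minimum of 10 CPM, no filter, a correction for GC and length of the longest transcript, and each library left out. Where DESeq2 called 0 members, its share over all genes is given only for the picoxystrobin slope and for the low and high groupings of picoxystrobin. CPM values shown use the TMM-scaled library sizes. The code was tested on simulated data.

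The members and lists were chosen with earlier results of these data known. Genes named with values in every library are the 10 members with the smallest unadjusted p in any planned comparison and the member with the highest level per kilobase in each of 6 steps. Hmgcs1 and Acaca were named after their values were seen. Of the lists around the pathway, the called genes are named, at most 4 per list. Positions are from GENCODE M21 on GRCm38. Depth limits only counting error, and no value covers the spread between cultures.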

Additional observations from a re-analysis of the deposited data

Results flagged for a closer look

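Within each compound's 4 libraries, 105 groups of 4 values were examined for a library far from the others, by the gap to its neighbour over the whole range. Of these, 8 groups held one, where chance gives about 1 in 20 for independent replicates of a single condition. The 4 values here are different concentrations, and the groups share libraries, so that rate is no yardstick for them. Picoxystrobin at 1000 nM was the high library in 5 of the 8: Acat2 at 273 CPM (next library 168), Mvk at 38.1 (21.5), Mvd at 91.1 (51.6), Ebp at 159 (89.2) and Dhcr7 at 291 (176). Trifloxystrobin gave Fdps high at 1000 nM, at 44.5 CPM (next 40.3), and Fads1 low at 100 nM, at 285 CPM (next 334). Pyraclostrobin gave Acaca high at 100 nM, at 13.8 CPM (next 12.0). The cause was not tested.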

How the results depend on the processing

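Counts of members called kept to their reported value, within 1.5 times, under RLE size factors and a minimum of 10 CPM. Without a filter on low counts, they became 1 for picoxystrobin against DMSO (0.681% of all genes then tested), 7 for its slope (1.59%), 5 at 30 and 100 nM (1.48%) and 1 at 300 and 1000 nM (1.19%). The same change gave 4 for pyraclostrobin against DMSO (3.87%), 5 for its slope (4.04%), 12 at 300 and 1000 nM (11.5%), and 1 (1.37%) and 3 (2.17%) for its matched pairs with picoxystrobin and trifloxystrobin. The pyraclostrobin slope called 4 members with DESeq2 (5.48% of genes), 2 with the GC and length correction (7.26%) and 3 with 2 levels per compound (6.82%). Pyraclostrobin at 300 and 1000 nM called 10 with that correction (26.1%), and 15 with it and without picoxystrobin at 1000 nM (36.7%). With each library left out in turn, counts ran from 0 to 8 for picoxystrobin against DMSO, 0 to 8 for its slope, 0 to 7 at 30 and 100 nM and 0 to 9 at 300 and 1000 nM. They ran from 0 to 1 for pyraclostrobin against DMSO, 0 to 5 for its slope, 0 to 1 at 30 and 100 nM and 2 to 17 at 300 and 1000 nM. With single libraries left out, the pyraclostrobin slope of Sqle ran from -0.22 to 0.038 and the picoxystrobin slope of Srebf2 from -0.21 to 0.55. Both turned their sign without the 1000 nM library of the compound. The cause was not tested. No paired analysis was possible against DMSO because its replicate numbers match no number or concentration of the compounds, while the matched pairs of compounds carry concentration as a block in the fit reported. Each single concentration rests on 1 library, and only azoxystrobin at 1000 nM, and a level left with 1 library when its partner was dropped, were tested alone.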
